A study of Mus musculus with 10 samples.

Results

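Fatty acids enter a kidney tubule cell from the filtrate and the blood, cross the membrane with the help of the receptor Cd36 and of the Slc27a fatty acid transport proteins (FATPs), and are carried through the cytosol by the small fatty acid binding proteins (FABPs). FATPs also join fatty acids to coenzyme A, which traps them in the cell for oxidation in mitochondria and peroxisomes or for storage in lipid droplets. Proximal tubule cells draw much of their energy from fatty acid oxidation, and several FABP and FATP genes are known targets of the nuclear receptors PPARα and PPARγ. The 9 genes described here, the FABP genes Fabp1, Fabp3, Fabp4, Fabp5 and Fabp7, the receptor gene Cd36 and the FATP genes Slc27a1, Slc27a2 and Slc27a4, were taken by name from a table of 21010 genes.

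The table held read counts from kidneys of 10 C57BL/6 mice in 2 groups of 5. KM mice carried Ksp1.3/cre and MYCfl/fl, so that Cre under the Ksp (Cdh16) promoter of tubular epithelium switched on MYC, and they form cystic kidneys. KMS mice carried the same alleles together with Setd2fl/fl, so both groups overexpressed MYC and only KMS lost Setd2, the enzyme that places the H3K36me3 mark, in cells with Cre. Cells without Cre kept Setd2 in both groups. Mice were 20 weeks old, and their sex was not stated per library.

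The samples are labelled as primary tubular epithelial cells, whereas the study's text speaks of cysts in KM and of neoplastic masses in KMS. All 14 proximal tubule markers passed the filter, and so did all 13 distal nephron and collecting duct markers, 12 macrophage markers and 12 endothelial markers. The libraries therefore held RNA of several cell types. In such bulk RNA, fewer cells of a type and less RNA per cell cannot be told apart. Library totals were 10873993 to 14564152 reads in KM and 16925118 to 25029639 in KMS. KMS 5 stood apart, with a mean Spearman correlation of 0.851 with its own group against 0.913 to 0.958 for the other libraries. The mean log2 CPM of 4 Y chromosome genes spanned -2.43 to 6.73 across KM and -2.43 to 4.96 across KMS. Libraries nearly without these transcripts were KM 4 (-2.43) in KM, and KMS 1 (-1.48), KMS 2 (-1.08) and KMS 3 (-2.43) in KMS. KM 3 (4.08) and KMS 5 (2.33) lay between these and the rest. Sex, as far as these genes show it, was thus unevenly spread over the groups and cannot be fully told apart from genotype. Setd2 itself had a log2 fold change of -0.25 (adjusted p = 0.658, edgeR quasi-likelihood test), with a mean of 67.7 CPM in KM and 56.9 CPM in KMS, and its libraries overlapped between the groups.

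Levels are given as CPM (a gene's reads per 1000000 reads of the library, with library totals scaled by TMM factors), and changes as log2 fold changes of KMS minus KM with their standard error (SE). The factor was 0.642 in KMS 5 and 0.938 to 1.22 in the other libraries. The scaling thus raised the CPM of every gene in KMS 5 above its share of the unscaled total. A gene was called where its adjusted p was under 0.05 and its level changed by more than 1.5-fold in either direction. All 9 genes passed the filter on low counts. None of the 9 was called, where 0.102% of the 15728 genes tested were called, 16 genes in all. At an unadjusted p under 0.05, Fabp3 was higher and Fabp5 lower, which is 2 of 9 genes against 19.5% of all genes tested (10.8% higher and 8.62% lower). Nor was any of the 9 called by DESeq2, which called 5.24% of its genes, by edgeR's likelihood ratio test, which called 3.83%, or with RUVg, a fit with 1 factor of unwanted variation, which called 6.35%. At an unadjusted p under 0.05 these tests had 3, 3 and 4 of the 9, beside 20.7%, 20.8% and 25.4% of all genes in the same fits. The groups overlapped for each of the 9 genes, whereas they did not overlap for 4.76% of all genes (1.84% with KMS above and 2.91% with KMS below). The 9 genes had a median log2 fold change of 0.42, with 5 above 0 and 4 below, beside a median of 0.06 and 54.0% above 0 for all genes tested. The plot of CPM by library shows the spread behind these values.

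**Figure D1:**
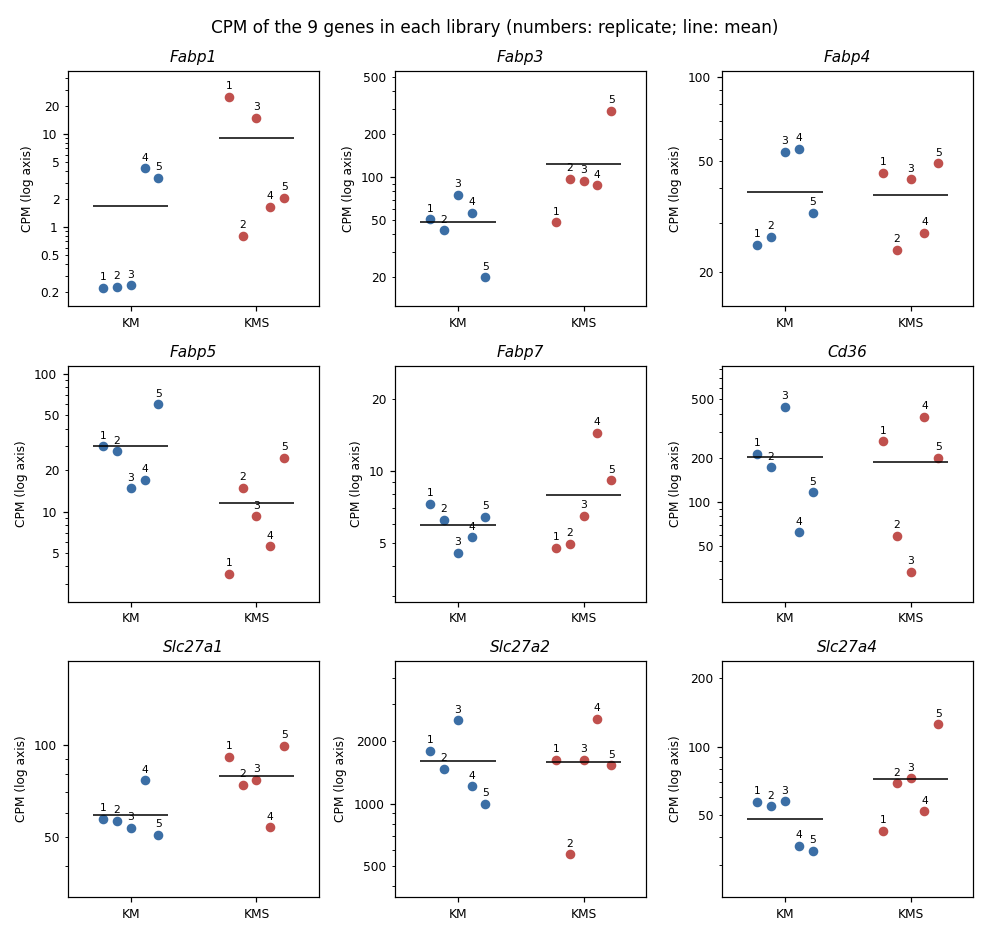
CPM (log axis, scale set for each gene) of the 9 genes in the 5 KM and 5 KMS libraries, each point a library marked with its replicate number and each line a group mean. The groups overlap in every panel. Fabp1 spans 0.223 CPM (KM 1) to 25.2 CPM (KMS 1), and Fabp3 reaches 293 CPM in KMS 5.

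Fabp1, the liver-type FABP, carries fatty acids to the nucleus as well as to oxidation, and is known in humans as a proximal tubule protein shed into urine in kidney injury. It is encoded at chr6:71199879-71205034 on the plus strand of GRCm38.p6. In KM it was measured at 0.223, 0.226, 0.236, 4.26 and 3.40 CPM in replicates 1 to 5. In KMS it was measured at 25.2, 0.807, 15.0, 1.65 and 2.05 CPM. KMS 1 and KMS 3 lay above all other libraries, KM 1 to KM 3 lay at the bottom, and the remaining KMS libraries fell below KM 4 and KM 5. The level in KM 1 rested on 3 reads (95% exact Poisson interval 0.0460 to 0.652 CPM, counting error only), and that in KMS 1 on 540 reads (23.1 to 27.4 CPM). KMS and KM differed by a log2 fold change of 2.42 (SE 1.13, adjusted p = 0.263, edgeR quasi-likelihood test), and the highest library exceeded the lowest 113-fold. Without KMS 1 the value was 1.55, and with the Y chromosome genes as a covariate it was 0.86 (adjusted p = 0.743). KM 4, KMS 1, KMS 2 and KMS 3, the libraries whose mean Y gene log2 CPM was below 0, held 4.26, 25.2, 0.807 and 15.0 CPM of Fabp1. The summed endothelial markers were 1517, 1374 and 1743 CPM in KM 4, KM 5 and KMS 3 and 309 to 992 CPM in the other libraries, and their part in the Fabp1 values was not tested.

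The 250 bases before the Fabp1 start are shown because Fabp1 had the widest range over libraries of the 9 genes and is a known PPARα target, and because PPAR and RXR bind as a pair to a direct repeat with 1 base between (DR1). The Fabp3 promoter is shown beside it as that of the other FABP gene with a large positive value. Both sequences are from RefSeq on GRCm38.p6, read 5′ to 3′ on the gene's strand, and capitals mark motif matches. Promoters were listed for 7 of the 9 genes.
Fabp1 promoter, chr6:71199629-71199878, plus strand: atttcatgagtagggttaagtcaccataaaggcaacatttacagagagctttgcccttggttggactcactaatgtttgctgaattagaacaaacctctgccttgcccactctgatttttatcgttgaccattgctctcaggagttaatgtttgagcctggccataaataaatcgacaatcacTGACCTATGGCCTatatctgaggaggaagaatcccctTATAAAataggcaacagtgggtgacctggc
Fabp3 promoter, chr4:130308488-130308737, plus strand: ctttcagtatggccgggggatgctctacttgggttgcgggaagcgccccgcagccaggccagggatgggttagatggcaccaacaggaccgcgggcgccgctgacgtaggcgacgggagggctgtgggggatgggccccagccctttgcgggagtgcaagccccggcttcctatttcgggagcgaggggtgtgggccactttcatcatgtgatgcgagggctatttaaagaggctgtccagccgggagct
In Fabp1 the first capitals spell TGACCTATGGCCT at -67 to -55 from the start, the minus-strand match to a pair of AGGNCA half-sites with 1 base between, and the second spell the TATA box TATAAA at -30 to -25. Searched on both strands, the DR1 letters were found in 0.338% and TATAAA in 12.4% of 32851 promoter windows of this length. Among the members with a promoter, Fabp1 alone held a match to the DR1 letters, and 0 of 13 fatty acid oxidation genes with a promoter held one. The E-box letters CACGTG, the form that MYC and MAX bind, were found in 1 of the windows of Slc27a1, at -202 to -197, and in 6.02% of all windows. A palindromic HNF1 motif, GTTAAT and ATTAAC with 1 base between, matched no member and 0.00913% of all windows. A match is a description of letters and not evidence of binding, and the deposited data hold no binding measurement used here.

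Fabp3, the heart-type FABP, supplies fatty acids to oxidative muscle and is also made in kidney. Its gene lies at chr4:130308738-130315463 on the plus strand. The 5 KM libraries held 50.9, 42.8, 75.4, 56.6 and 20.04 CPM in replicates 1 to 5. The 5 KMS libraries held 48.5, 97.8, 94.8, 88.2 and 293 CPM. KMS 2 to KMS 5 lay above all KM libraries, and KMS 1 lay within the KM range. The means were 49.1 ± 20.2 (SD, n = 5) and 124 ± 96.1 CPM (SD, n = 5), and the log2 fold change was 1.34 (SE 0.472, adjusted p = 0.192, edgeR). Without KMS 5, the library that stood apart, the value was 0.75 (adjusted p = 0.287). The lowest adjusted p over 21 alternatives was 0.0620, from the fit with RUVg. The pseudogene Fabp3-ps1 matches Fabp3 at 99.3% of 402 bases, so reads may be split, but it took 0.581% to 4.15% of the pair's counts. Fabp3 also shares 81 exon bases with Zcchc17 on the other strand, at 13.7 to 33.7 CPM, and the strand setting of the counting was not given in the sources used here. For protein, a different measure from RNA, the study reports the other direction. It lists FABP3 among proteins lower after Setd2 deletion in the mice and also lower in human clear cell renal cell carcinoma.

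Fabp4, the adipocyte FABP, is made in fat cells, capillary endothelium and macrophages. The gene lies at chr3:10204342-10208616 on the minus strand. Levels of replicates 1 to 5 were 25.05, 26.8, 54.1, 55.5 and 32.7 CPM in KM. In KMS they were 45.4, 24.1, 43.1, 27.7 and 49.2 CPM. Low and high libraries occurred in both groups, over a 2.30-fold range. The log2 fold change was -0.04 (SE 0.3001, adjusted p = 0.961, edgeR). The defining fat cell genes were near 0 in most libraries, with Adipoq at 7.03 CPM in KM 3 and at most 0.0755 CPM in the others. KM 3 and KMS 5 also held the most Cfd, at 33.8 and 18.3 CPM, and Plin1, at 2.90 and 1.37 CPM, and KMS 5 was the KMS library highest for Fabp4. Fabp4 in KM 3 was 54.1 CPM, close to the 55.5 CPM of KM 4, which held 0 CPM of Adipoq, Cfd and Plin1. Of the 11 adipocyte markers, 10 were in the table and 3 passed the filter, and the summed level of the 10 was 32.2 to 93.2 CPM in KM and 29.5 to 81.5 CPM in KMS.

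Fabp5, the epidermal FABP, is made in keratinocytes, macrophages and many proliferating cells. It is encoded at chr3:10012585-10016610 on the plus strand. KM replicates 1 to 5 had 29.7, 27.3, 14.8, 17.02 and 59.98 CPM. KMS replicates 1 to 5 had 3.55, 14.9, 9.20, 5.6 and 24.6 CPM. KM 5 was the highest library, 3 of 5 KMS libraries lay below all KM libraries, and KMS 2 and KMS 5 lay within the KM range. The means were 29.8 ± 18.1 and 11.6 ± 8.46 CPM (SD, n = 5 each), and the log2 fold change was -1.36 (SE 0.536, adjusted p = 0.214, edgeR). It was -0.96 without KM 5 and -1.82 without KMS 5, and the lowest adjusted p over 21 alternatives was 0.0885, from the fit with RUVg. A near-identical copy, Gm6166, matches Fabp5 at 98.3% of 409 bases and took up to 16.6% of the pair's counts, and 4 further copies at 93.6% to 97.3% identity were not in the table.

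Markers of several other cell types were lower in KMS, as Fabp5 was. The summed 12 macrophage markers were 264 to 914 CPM in KM and 112 to 371 CPM in KMS, with all 12 log2 fold changes negative and 7 at an unadjusted p under 0.05. Among defining markers, Csf1r was 36.9 to 48.0 CPM in KM and 5.74 to 23.6 CPM in KMS. It was 1 of 2 of the 12 macrophage markers with all KMS libraries below KM, beside 2.91% of all genes. The others overlapped, and C1qb was highest of all libraries in KMS 5, at 96.1 CPM. The summed basal and squamous epithelial markers were 21.3 to 216 CPM in KM and 0.354 to 29.99 CPM in KMS, and Krt5, which was called, was at 0 CPM in 3 of 5 KMS libraries. The 8 T and B cell markers all had negative log2 fold changes at an unadjusted p under 0.05, with a median of -2.17. The 8 fibroblast markers were all negative, 6 of them at that p, with a median of -1.98. Of all genes tested, 8.62% were lower at that p. KM 5, the library highest for Fabp5, was also highest for the injury genes Havcr1 at 195 CPM and Lcn2 at 774 CPM, and for the macrophage sum. Of the other injury markers, Krt19, Vcam1, Spp1 and Sox9 were also highest in KM 5. Krt7 and Clu were highest in KMS 2, at 333 and 1509 CPM, and Krt20 in KMS 1, at 31.6 CPM. The part of these cells in the Fabp5 values was not tested.

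Fabp7, the brain-type FABP, is made in radial glia and is known from human renal cell carcinoma. Its gene lies at chr10:57784923-57788450 on the plus strand. In KM it was measured at 7.28, 6.26, 4.55, 5.29 and 6.44 CPM. In KMS it was measured at 4.76, 4.96, 6.49, 14.4 and 9.15 CPM. KMS 4 and KMS 5 lay above KM and the other KMS libraries within its range. KMS and KM differed by a log2 fold change of 0.42 (SE 0.352, adjusted p = 0.540, edgeR) and 0.09 without KMS 4. Of the 5 glial and neural markers in the table, 2 passed the filter, and the summed level of the 5 was 10.3 to 17.02 CPM in KM and 3.90 to 19.4 CPM in KMS.

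Cd36, the scavenger receptor that takes up long-chain fatty acids and oxidized lipoprotein, is made in proximal tubule, endothelium and macrophages. The gene lies at chr5:17781690-17888959 on the minus strand. The 5 KM libraries held 213, 172, 444, 62.1 and 116 CPM in replicates 1 to 5. The 5 KMS libraries held 259, 58.7, 33.6, 382 and 201 CPM. Low and high libraries occurred in each group, over a 13.2-fold range. The log2 fold change was -0.11 (SE 0.651, adjusted p = 0.942, edgeR), and it ran from -0.54 without KMS 4 to 0.41 without KM 3.

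Slc27a2 (FATP2), which sits in the apical membrane of proximal tubule cells and also activates very long-chain fatty acids in peroxisomes, was the most abundant of the 9 genes. It is encoded at chr2:126553024-126588243 on the plus strand. Levels of replicates 1 to 5 were 1799, 1468, 2517, 1212 and 997 CPM in KM. In KMS they were 1626, 571, 1622, 2548 and 1528 CPM. KMS 2 was the lowest library and KMS 4 and KM 3 the highest, so the groups covered each other. KMS and KM differed by a log2 fold change of -0.02 (SE 0.407, adjusted p = 0.985, edgeR). KMS 2 also had the lowest level of Lrp2 (megalin) at 215 CPM, where the other KMS libraries held 308 to 2198 CPM, and of Cubn (cubilin) at 65.2 CPM. Over all 14 proximal tubule markers the sum was lowest in KMS 1, at 3308 CPM against 4012 CPM in KMS 2, although KMS 1 held 1626 CPM of Slc27a2. Slc27a2 and Cd36 had a Pearson r of 0.67 over the 10 libraries, which share depth and cell mix. Slc27a2 overlaps the antisense RNA gene Gm26697 by 419 exon bases, a gene not in the table.

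Slc27a1 (FATP1), the insulin-responsive transporter of muscle and fat, lies at chr8:71568728-71587307 on the plus strand. KM replicates 1 to 5 had 57.1, 56.3, 53.4, 76.5 and 50.8 CPM. KMS replicates 1 to 5 had 91.5, 73.8, 76.8, 53.7 and 99.1 CPM. Apart from KM 4 and KMS 4, all KMS libraries lay above all KM libraries. The means were 58.8 ± 10.2 and 79.0 ± 17.5 CPM (SD, n = 5 each), and the log2 fold change was 0.42 (SE 0.207, adjusted p = 0.280, edgeR). It was the steadiest of the 9 genes, with a 1.95-fold range over the 10 libraries.

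Slc27a4 (FATP4), the transporter of gut and skin that also acts in the endoplasmic reticulum, lies at chr2:29802634-29817522 on the plus strand. In KM it was measured at 56.9, 54.4, 57.3, 36.5 and 34.7 CPM. In KMS it was measured at 42.5, 68.9, 72.5, 51.8 and 126 CPM. KMS 2, KMS 3 and KMS 5 lay above KM, and KMS 1 and KMS 4 within its range. The log2 fold change was 0.59 (SE 0.296, adjusted p = 0.292, edgeR) and 0.31 without KMS 5. Slc27a4 and Fabp3 had the closest pattern among the 36 pairs of the 9 genes, with a Pearson r of 0.89 over the 10 libraries, and both were highest in KMS 5. The plot of fold changes shows each gene's range when single libraries were left out.

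**Figure D2:**
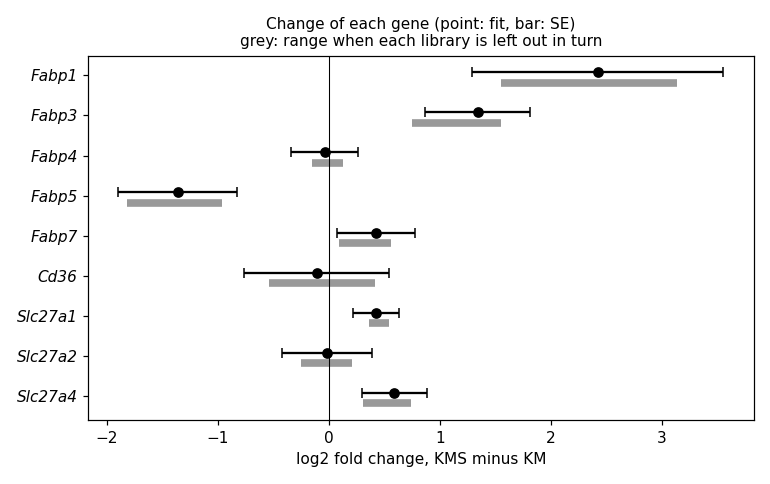
Log2 fold change of KMS minus KM for the 9 genes (points, with bars for 1 SE) and the range of the fitted value when each of the 10 libraries was left out in turn (grey). Fabp1, Fabp3, Fabp7, Slc27a1 and Slc27a4 stay above 0 and Fabp5 stays below 0, whereas Fabp4, Cd36 and Slc27a2 cross 0.

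Levels of different genes were compared per kilobase of transcript. Slc27a2 stood first, at 548 ± 204 CPM per kb in KM and 541 ± 240 in KMS (SD, n = 5 each). In KM it was followed by Cd36 at 74.4 ± 54.3, Fabp3 at 59.7 ± 24.6, Fabp4 at 43.3 ± 16.6 and Fabp5 at 30.1 ± 18.3 CPM per kb. Slc27a1 at 21.3 ± 3.69, Slc27a4 at 11.8 ± 2.79, Fabp7 at 7.08 ± 1.26 and Fabp1 at 3.02 ± 3.61 CPM per kb came last. In this KM order the libraries of Slc27a2 and Cd36 did not overlap, nor did those of Slc27a1 and Slc27a4, and all other neighbours overlapped. In KMS the order after Slc27a2 was Fabp3 at 151 ± 117, Cd36 at 69.0 ± 53.3, Fabp4 at 42.3 ± 12.6, Slc27a1 at 28.6 ± 6.35, Slc27a4 at 17.8 ± 7.95, Fabp1 at 16.2 ± 19.6, Fabp5 at 11.7 ± 8.57 and Fabp7 at 9.45 ± 4.78 CPM per kb. All neighbours of the KMS order overlapped.

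**Figure D3:**
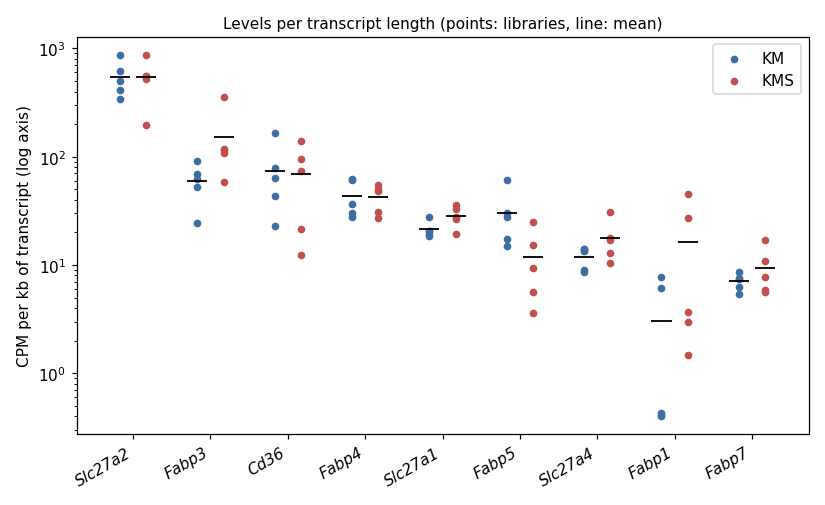
CPM per kilobase of transcript (log axis) for the 9 genes, ordered by mean, with each point a library and each line a group mean. Slc27a2 lies near 548 in KM and 541 in KMS, above the other 8 genes on average.

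Within the 3 FATP genes, Slc27a2 made up 91.9% to 96.3% of the summed CPM per kb in KM and 81.7% to 96.4% in KMS. Within the 5 FABP genes, Fabp3 made up 17.98% to 53.0% in KM and 35.8% to 79.0% in KMS. The Fabp5 share was 8.66% to 44.9% in KM and 2.19% to 8.99% in KMS, where the low end of KM lay below the high end of KMS. Fabp1 made up 27.7% of the FABP sum in KMS 1 and 0.247% to 4.75% in KM. The make-up of the FABP pool thus varied between mice of 1 group, while the FATP pool was mostly Slc27a2 in each library.

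The genes most like each member were found by Pearson r of log2 CPM over the 10 libraries, among the 13287 genes whose mean log2 CPM reached 1, as a description. Fabp1 was most like Tenc1 (r = 0.941), Nos3 (0.940), the endothelial nitric oxide synthase, and Adm (0.938), which encodes adrenomedullin. Fabp3 was most like Fam210b (0.971), Ldhb (0.969), a lactate dehydrogenase subunit, and Gm10250 (0.965). Fabp5 was most like C1qc (0.950), a macrophage complement gene, Sept5 (0.943) and Cd74 (0.937), the invariant chain of MHC class II.

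Slc27a2 was most like Ugt3a1 (0.955) and Ugt3a2 (0.947), which encode glycosyltransferases, and Ttbk1 (0.940). Slc27a4 was most like D10Jhu81e (0.985), Snx3 (0.984) and Sirt2 (0.971), and Slc27a1 most like Dpf2 (0.940), Sh3gl1 (0.938) and Hrct1 (0.922). Cd36 was most like Znrf2 (0.921), Ces1f (0.903) and Apoh (0.897). Fabp4 was most like Ceacam2 (0.914), Fam117b (0.891) and Ppp1r3e (0.867), and Fabp7 most like Hrsp12 (0.917), 4933434E20Rik (0.900) and Cyp4a12b (0.891). These libraries share depth, cell mix and KMS 5, so such values say nothing of shared control. The order also moved without KMS 5. C1qc, Sept5 and Cd74 then ranked 16, 31 and 38 for Fabp5, at r of 0.957, 0.942 and 0.936, and Tenc1 ranked 12 for Fabp1. Hrsp12 for Fabp7, Dpf2 for Slc27a1 and D10Jhu81e for Slc27a4 stayed at rank 1.

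In 7 lists of related genes, 0 genes were called by edgeR, beside 0.102% of all genes. Of 10 other genes of the lipid-binding family, 4 were in the table and 2 were tested. Crabp2, a retinoic acid carrier, had a log2 fold change of -2.43 (adjusted p = 0.192). Of the other FATP genes, Slc27a3 was tested, with a log2 fold change of 0.73 (adjusted p = 0.318), and Slc27a5 was too low. Among the 16 acyl-CoA synthetase and carrier genes, 7 log2 fold changes were positive and 9 negative, with a median of -0.17. At an unadjusted p under 0.05 there was 1 gene in each direction, beside 10.8% higher and 8.62% lower of all genes. Without KMS 5 there were 3 genes in each direction, beside 1139 higher and 1585 lower of 16000 genes, and the median was -0.01. With the Y gene covariate 10 of 16 were positive with a median of 0.10.

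The most abundant genes of that list were Acsm2, a medium-chain synthetase of the proximal tubule, Dbi, which encodes the acyl-CoA binding protein, and Scp2, a sterol and lipid carrier of peroxisomes. Dbi was measured at 425, 413, 402, 301 and 358 CPM in KM and at 731, 693, 456, 682 and 1921 CPM in KMS. All KMS libraries lay above all KM libraries, a pattern of 1.84% of all genes. Its log2 fold change was 1.24 (SE 0.377, adjusted p = 0.166, edgeR), and 0.78 without KMS 5. The log2 fold change of Scp2 was 0.68 (adjusted p = 0.359) and that of Acsm2 was -0.50 (adjusted p = 0.728).

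The 19 fatty acid oxidation genes tested all had positive log2 fold changes, with a median of 0.64 beside 0.06 for all genes, and 7 of 19 had an unadjusted p under 0.05 beside 10.8% of all genes in that direction. Without KMS 5 the count at that p was 5 of 19, beside 1139 of 16000 genes tested that were higher in that fit, and the median was 0.54. Without KMS 1, 18 of 19 log2 fold changes were positive (median 0.48), and 6 had that p, beside 1857 higher of 15997 genes. With the Y gene covariate, 17 of 19 were positive (median 0.62), and 5 had that p, beside 1812 higher of 15728 genes. Among its most abundant genes, Acadm, the medium-chain dehydrogenase, had a log2 fold change of 0.31 (adjusted p = 0.744) and Hadh, a dehydrogenase of the third step, of 0.72 (adjusted p = 0.183). Acaa2, the last thiolase of mitochondrial oxidation, named after its values were seen, was 123 to 169 CPM in KM and 213 to 467 CPM in KMS. Its log2 fold change was 1.22 (SE 0.254, adjusted p = 0.105, edgeR), and the groups did not overlap. In DESeq2 Acaa2 was called (adjusted p = 0.000477).

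Of 12 lipid droplet genes tested, 11 log2 fold changes were positive, with a median of 0.62 beside 0.06 for all genes. At an unadjusted p under 0.05, 5 of 12 were higher, beside 10.8% of all genes in that direction. Without KMS 5, 1 of 12 was, beside 1139 of 16000 genes. Pnpla2, the adipose triglyceride lipase, had a log2 fold change of 1.40 (adjusted p = 0.168), Plin2, the coat protein of droplets, of 0.88 (adjusted p = 0.238), and Dgat2, a triglyceride synthase, of 0.53 (adjusted p = 0.336). Of 12 PPAR and RXR regulators, 8 were positive, with a median of 0.42. At an unadjusted p under 0.05, 2 were higher and 1 lower, beside 10.8% and 8.62% of all genes. Without KMS 5, 6 of the 12 were positive, with a median of -0.07. At that p 1 was then higher and 1 lower, beside 1139 and 1585 of 16000 genes. Hnf4a had a log2 fold change of 0.35, Ppara of 0.41 and Ppargc1a of -0.21, with adjusted p of 0.567, 0.598 and 0.749. Pparg, named after its values were seen, was 3.42 to 6.73 CPM in KM and 1.79 to 3.42 CPM in KMS, a log2 fold change of -1.22 (adjusted p = 0.150).

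Of 15 lipoprotein and albumin uptake genes tested, 4 were positive and 11 negative, with a median of -0.10. This balance rested on single libraries, since 8 of the 15 were positive without KMS 5 (median 0.04) or without KMS 1 (median 0.00). Lrp2 had a log2 fold change of -0.11, Lpl, the lipase that frees fatty acids from lipoprotein, of -0.10 and Cubn of -0.02, with adjusted p of 0.938, 0.911 and 0.989. Angptl4, an inhibitor of Lpl named after its values were seen, was measured at 25.3, 29.6, 27.4, 12.4 and 9.77 CPM in KM and at 195, 18.1, 67.3, 61.3 and 246 CPM in KMS. KMS 2 lay within the KM range and the other KMS libraries above it, with a log2 fold change of 2.49 (adjusted p = 0.133, edgeR). The plot of the lists shows how these values lie around the median of all genes.

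**Figure D4:**
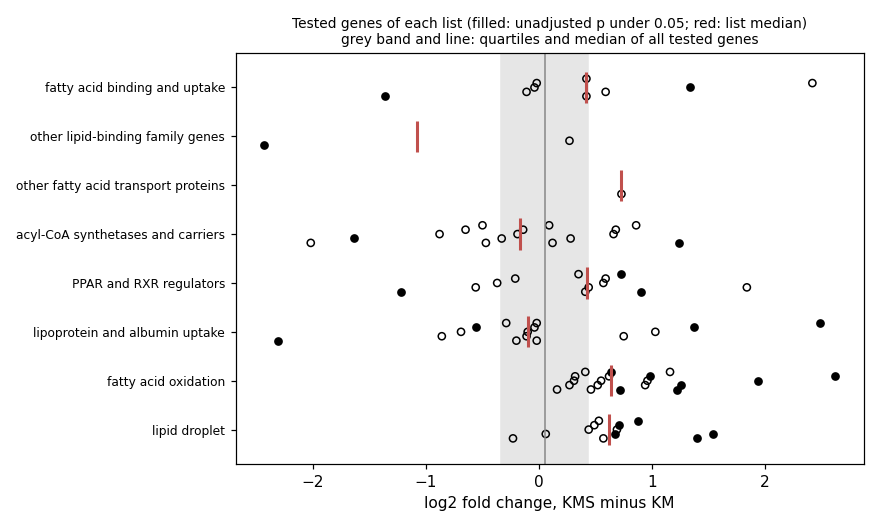
Log2 fold change of KMS minus KM of each tested gene in the 9 genes described and in 7 related lists, with filled points for an unadjusted p under 0.05 and red lines for list medians. The fatty acid oxidation genes all lie above 0, around a median of 0.64, while the acyl-CoA synthetases lie around -0.17.

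KMS 1, the library highest for Fabp1, was also the highest for 9 of the 19 fatty acid oxidation genes and 3 of the 12 lipid droplet genes, while KMS 5 was the highest for 7 and 7 of them. The share of all genes tested that were highest in these libraries was not counted. These counts therefore cannot be read as a trait of the lists. The genes given next were named after their values were seen. Pdk4, the kinase that shuts pyruvate out of the citric acid cycle, was 384 CPM in KMS 1 and 13.4 to 68.7 CPM in the other libraries. Cyp4a10, a fatty acid hydroxylase, was 841 CPM in KMS 1 and 476 CPM in KMS 3, against 110 to 359 CPM in KM. Plin2 was 258 CPM in KMS 1 and 60.4 to 205 CPM in the other libraries. Other genes of these lists peaked elsewhere, Cyp4a14 in KMS 3 at 872 CPM, Acaa2 in KMS 3 at 467 CPM and Acadm in KM 3 at 1205 CPM, and among KM libraries Pdk4 and Cyp4a10 were highest in KM 3, where Fabp1 was 0.236 CPM. KMS 2 lay within the KM range for Pdk4, at 31.8 CPM, and below it for Cyp4a10, at 78.6 CPM. Without KMS 1 the log2 fold change of Pdk4 was 0.66 in place of 1.94, and that of Cyp4a10 0.43 in place of 0.94.

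Of the 9 genes, Fabp1 alone was highest in KMS 1. Slc27a1 there, at 91.5 CPM, lay above the KM range and below KMS 5. Slc27a2 and Cd36 in KMS 1, at 1626 and 259 CPM, lay within the KM range, Fabp3 there was 48.5 CPM, the lowest of KMS, and Fabp5 was 3.55 CPM, the lowest of all. Fabp3, Slc27a4 and Dbi were highest in KMS 5 instead. The heat map of these genes by library places the patterns side by side.

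**Figure D5:**
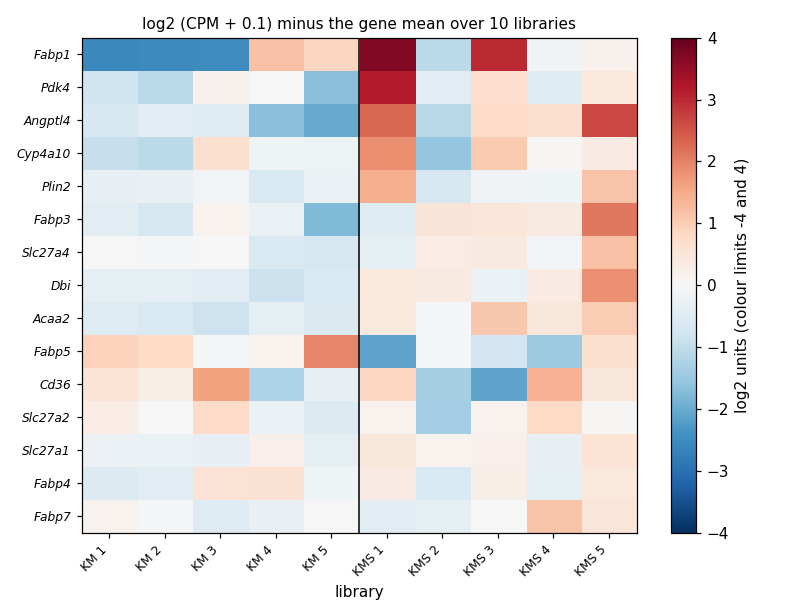
Log2 (CPM + 0.1) minus the gene's mean over the 10 libraries, in colour from -4 to 4, for the 9 genes and 6 related genes named in the text (rows) in each library (columns), with KM left of the line. Fabp1, Pdk4 and Cyp4a10 are highest in KMS 1, Fabp3, Slc27a4 and Dbi in KMS 5, and Fabp5 in KM 5.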

How the data were processed

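The deposited counts are whole reads per gene. Per the study's methods the authors prepared directional polyA libraries, sequenced 150-base paired reads, used HISAT2 2.2.1 for alignment (GRCm38) and HTSeq for counting. Its strand setting is not stated, and the series' design text says "in triplicate" although each mouse has 1 column. The deposited table also holds the authors' own log2 fold changes and p-values with their FDR, which were not used. Counts were analysed with edgeR 4.0.16 (R 4.3.3): filterByExpr, TMM and the quasi-likelihood test, with Benjamini-Hochberg adjustment over all 15728 genes, tested first on simulated data. DESeq2 1.42.0, limma-voom (limma 3.58.1), a likelihood ratio test, RUVg with 1 factor, other scalings and filters, a replicate block, a Y gene covariate, thinning to 10873993 reads and leaving out each of 10 libraries were alternatives. The control genes of RUVg were those outside the 5000 with the lowest p in the same comparison of KMS with KM. Its factor thus came from genes picked for little difference between the groups, so its p-values are not independent of the main test. Log2 CPM used a prior count of 3. Transcript length was the median of coding transcripts in the basic GENCODE set, and copies were found with BLAST+ 2.17.0 at 90% identity over 300 bases. KM 1 and KM 2 were the most alike pair (Spearman 0.993). Their chi-square per gene had a mean of 5.88 and a median of 1.09, against at least 48.9 and 4.17 in the other pairs of a group. Sampling alone gives 1 and 0.455. Separate libraries from 1 mouse could also exceed sampling, so these values cannot show that KM 1 and KM 2 were separate mice. They were counted as such because the study states that 5 KM mice were used for RNA sequencing. Nothing in the labels says more about how the replicates were taken. Genes were named by a rule: all members, the 3 most abundant of each related list with any called gene, and the 3 most alike genes. Some genes under that rule are not reported here. Members and lists were chosen with earlier results of these data known.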

Additional observations from a re-analysis of the deposited data

Results flagged for a closer look

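Slc27a1 in KM was 76.5 CPM in KM 4, with the next library at 57.1 CPM. On the log2 CPM scale, the gap of that library to the next was 0.715 of the group's range. This is above the limit of 0.71 used for 5 samples. On that scale it was the only such library among the 54 sets of 5 libraries examined, where chance alone gives about 1 in 20. Without KM 4 the direction of the Slc27a1 difference was the same.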

How the results depend on the processing

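None of the 9 genes was called under any of the 21 alternatives. The 16 genes called over the whole table became 25 with upper quartile scaling, 33 with limma-voom, 602 with the likelihood ratio test, 1072 with DESeq2, 998 with RUVg (492 higher, 506 lower), 7 with the Y gene covariate and 2 with the replicate block, and 9 to 42 when single libraries were left out (42 without KMS 2, 9 without KM 2 or KMS 1). The cause was not tested. Replicate numbers did not pair the mice, since same-numbered libraries had deviation correlations of -0.443 to 0.143 and none correlated best with its own number.

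In the lists, 0 calls became 1 in DESeq2 and RUVg for acyl-CoA synthetases and carriers (Dbi), 1 in DESeq2, the likelihood ratio test and RUVg for regulators (Pparg) and for lipoprotein and albumin uptake (Angptl4), 3 in DESeq2, 2 in the likelihood ratio test and 3 in RUVg for fatty acid oxidation, and 1 in DESeq2 for lipid droplets (Pnpla2).

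Values near 0 changed sign: with the Y gene covariate Cd36 had a log2 fold change of 0.54 and Slc27a2 of 0.20, and with single libraries left out Fabp4 ran from -0.15 to 0.13, Cd36 from -0.54 to 0.41 and Slc27a2 from -0.25 to 0.21. The other 6 genes kept their sign in all 21 alternatives. Upper quartile scaling moved the median of all genes from 0.06 to -0.09, and there Fabp3 was 1.16 and Fabp5 -1.54. Fabp1 rested on 3 to 62 reads in KM, so its low values carry wide counting error.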
